A study of Equus caballus with 6 samples.

Results

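The genes described here encode carriers that move amino acids, small peptides, creatine, sugars, inositol, vitamins, lactate and related monocarboxylates across cell membranes in the day 8 horse (Equus caballus) blastocyst. They were chosen by symbol, as every gene of the solute carrier families SLC1, SLC2, SLC3, SLC5, SLC6, SLC7, SLC15, SLC16, SLC36, SLC38 and SLC43, whatever its values. This gave 54 carriers from 11 families among the 12270 genes of the deposited table. The 3 libraries of inner cell mass (ICM, labelled 15, 22 and 25) and the 3 of trophectoderm (TE, labelled 16, 23 and 24) came from blastocysts produced in vivo in superovulated mares and collected on day 8. All blastocysts received Pronase, a protease mix. TE pieces were then taken mechanically and ICM was cleaned by immunosurgery, so tissue and isolation method coincide and cannot be told apart for any gene. The labels speak of single blastocysts and name neither the mares nor their age, and no number occurs in both tissues. P-values therefore measure the spread between these libraries.

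Carriers decide which nutrients a cell can take from the fluid around it. Sodium-coupled carriers concentrate amino acids or sugars inside the cell, exchangers trade one amino acid for another, facilitated sugar carriers let glucose or fructose run down a gradient, and monocarboxylate carriers move lactate and pyruvate together with protons. In the blastocyst, TE forms the outer transporting epithelium, facing the uterine fluid, while ICM lies inside it and gives rise to the embryo proper and the yolk sac endoderm.

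The table held 6526212 to 10686659 reads per library. Levels are in RPKM, the authors' reads per kilobase corrected for depth. The labelled tissues were checked with marker lists. The TE markers (6 of 8 in the table) summed to 36.7 to 51.2 RPKM in ICM and 125 to 157 RPKM in TE, and the epiblast gene SOX2 was at 0 in every TE library. ICM 25 stood apart from the other ICM libraries. Its epiblast markers (7 of 7) summed to 59.3 RPKM, against 149 and 143 in ICM 15 and 22 and 45.4 to 72.8 in TE, and its hypoblast markers (6 of 7) to 24.4 RPKM, against 69.6 and 77.0 in ICM 15 and 22 and 20.4 to 32.2 in TE. Its TE markers, at 39.3 RPKM, lay between those of ICM 15 and 22. Its values also ran low over all genes. The median ratio of a library to each gene's geometric mean was 0.775 in ICM 25 and 1.02 to 1.14 in the other libraries. Where ICM 25 stands against TE thus depends on the scaling, and levels are given in RPKM without rescaling by these ratios unless stated. Single markers went both ways. In ICM 25, NANOG (1.75 RPKM, against 0.0397 to 0.157 in TE), SOX2, KLF4, GDF3, PDGFRA and APOA1 were above every TE library. POU5F1, DPPA4 and LIN28B lay within the TE range, and GATA4, GATA6, FOXA2 and HNF4A below it. Of the lists for other cells, blood markers (2 of 8 in the table) summed to 1.07 to 4.199 RPKM and endometrial markers (2 of 5) to 1.52 to 5.17. Of the cumulus cell list (1 of 5), CYP19A1 stood at 26.1 in ICM 25 and 4.36 to 19.1 elsewhere. This 1 gene cannot tell cumulus cells from expression by the blastocyst itself. HBB, HBA, PTPRC and PAEP were not analysed here. Results are given with and without ICM 25 where they rest on it. The part of these markers in the carriers' values was not tested.

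**Figure D1:**
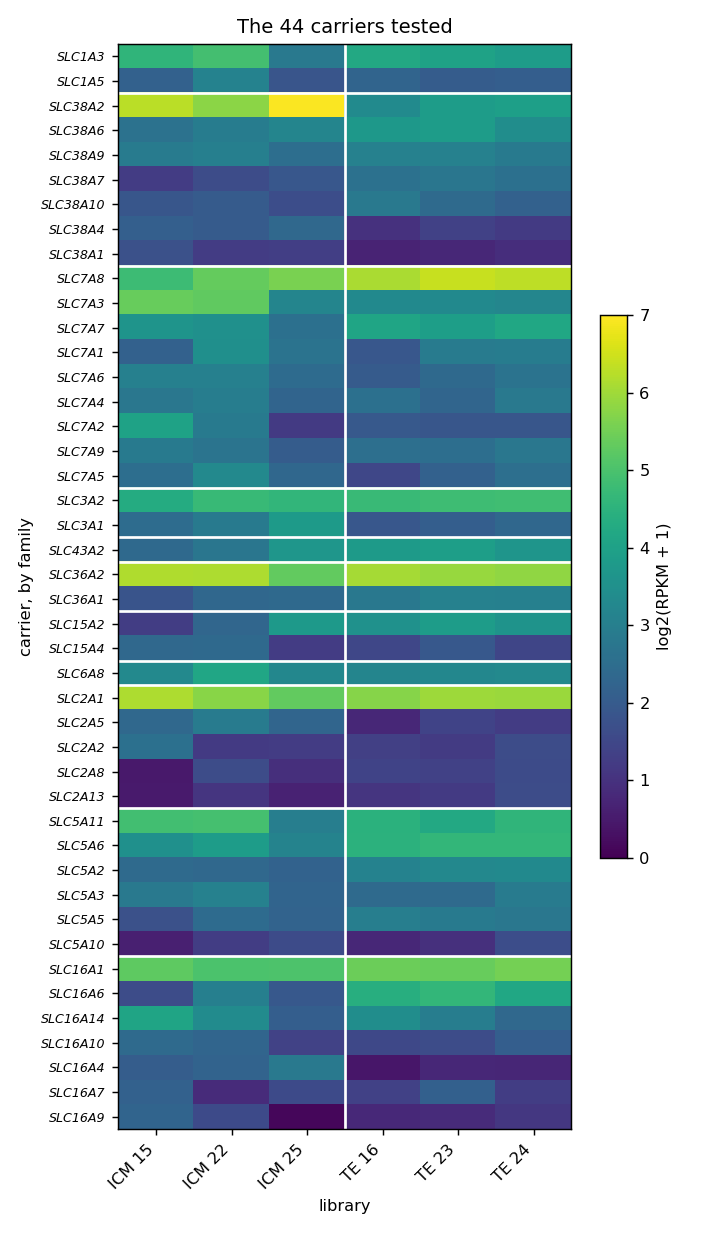
RPKM of the 44 tested carriers in each of the 6 libraries, on a log2(RPKM + 1) colour scale, ordered by family and, within a family, by mean level. SLC38A2 stands at 54.2 to 122 RPKM in ICM and 9.24 to 14.4 in TE, whereas SLC2A1, SLC36A2 and SLC16A1 are high in every library.

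The summed level of all 54 carriers was close in the tissues, but its makeup differed. The sum was 570, 573 and 488 RPKM in ICM 15, 22 and 25 and 509, 548 and 539 RPKM in TE 16, 23 and 24. The highest mean in ICM belonged to SLC38A2 (84.5 RPKM), followed by SLC36A2 (59.7), SLC2A1 (53.7), SLC7A8 (37.6) and SLC16A1 (33.6). In TE the order was SLC7A8 (76.97 RPKM), SLC36A2 (60.4), SLC2A1 (58.3), SLC16A1 (42.6) and SLC3A2 (27.1). In ICM the libraries of each of these carriers overlapped those of the next in the order. In TE only SLC36A2 and SLC2A1 did.

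Of the 54 carriers, 44 reached 1 RPKM in at least 3 libraries and were tested with limma on log2(RPKM + 1), over all 9436 genes that passed this filter. SLC16A4 and SLC38A1 passed it only through their ICM values. At an adjusted p of 0.05, 4 carriers were called, where 1.87% of all genes tested were. SLC38A2, SLC16A4 and SLC2A5 were higher in ICM (0.933% of all genes) and SLC16A6 was higher in TE (0.933% of all genes). In 19 carriers the ICM and TE values did not overlap, where this held for 24.6% of all genes tested. ICM lay above TE in 6 of them, against 6.81% of all genes, and TE above ICM in 13, against 17.8%. After rescaling by the median of ratios these counts were 10 and 10. SLC7A3, SLC7A5, SLC7A6 and SLC6A8 then had ICM above TE without overlap, and SLC16A1, SLC3A2 and SLC38A6 overlapped. The shares over all genes were not counted after rescaling, so those above do not apply to the rescaled counts. The median log2 difference, ICM minus TE, was -0.02 over the carriers and -0.15 over all genes. Without ICM 25 these medians were 0.24 and -0.01, and after rescaling by the median of ratios 0.10 and -0.03. With all libraries, 18 carriers had an unadjusted limma p under 0.05 (16.9% of all genes).

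The calls hung on single libraries, as they did over all genes. Without ICM 25, 15 carriers were called, where 11.5% of all genes were in that fit. Of these, 6 were higher in ICM (5.89% of all genes) and 9 in TE (5.62% of all genes). They included all 4 of the carriers above. Without ICM 22 only SLC38A2 and SLC16A6 passed, among 76 of all 9436 genes. Without ICM 15, TE 16, TE 23 or TE 24 no carrier did, in fits that called 18, 0, 1 and 1 of all genes. Each of the 4 kept its direction in these fits. That was fixed in advance, because their ICM and TE libraries did not overlap.

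**Figure D2:**
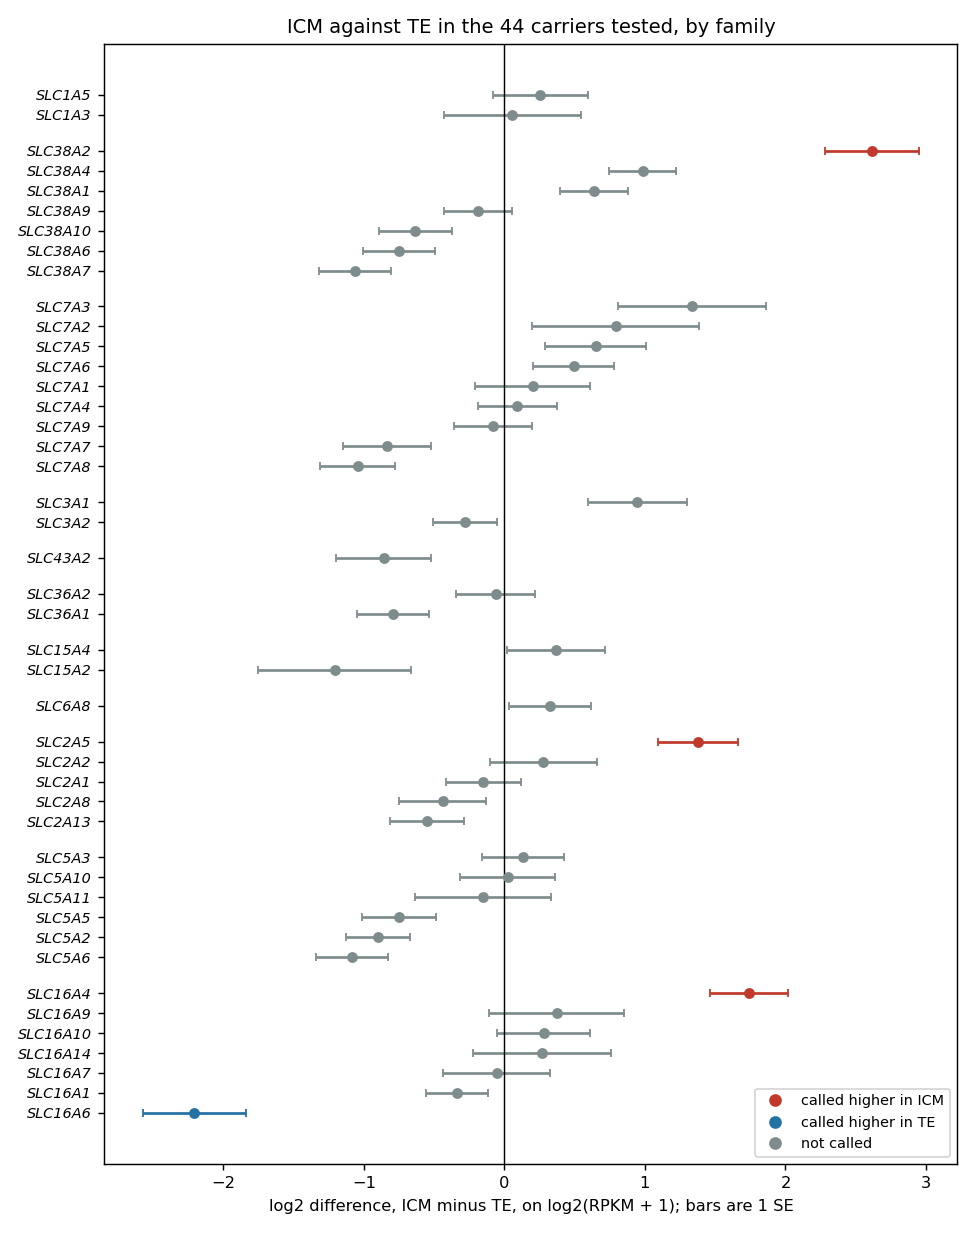
Log2 difference of each of the 44 tested carriers (ICM minus TE, on the log2(RPKM + 1) scale, with its standard error), by family, with called carriers marked. SLC38A2 at 2.62 and SLC16A6 at -2.21 are the farthest from 0 in each direction.

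The sodium-coupled carriers of neutral amino acids held SLC38A2, the tested carrier with the largest difference on the log2(RPKM + 1) scale. With a pseudocount of 0.1 or with voom, SLC16A4 had the larger one. SLC38A2, which imports small neutral amino acids such as alanine and glutamine and whose activity is known to follow amino acid supply, stood at 76.9, 54.2 and 122 RPKM in ICM 15, 22 and 25. In TE 16, 23 and 24 it stood at 9.24, 13.6 and 14.4 RPKM. Every ICM library was above every TE library, and ICM 25 was the highest. The means were 84.5 ± 34.8 and 12.4 ± 2.78 RPKM (SD, n = 3 each), a 6.81-fold higher level in ICM, with a log2 difference of 2.62 (SE 0.33, limma adjusted p = 0.014). It rested on 12675 reads in ICM and 1703 in TE. The log2 difference was 2.31 without ICM 25 (limma adjusted p = 0.0031) and 2.31 to 2.89 with any library left out (adjusted p 0.0031 to 0.117). In bulk tissue, fewer cells of a type and less RNA per cell cannot be told apart, here or for any gene below.

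SLC38A2 lies on chromosome 6 from 64362901 to 64372882 in the coordinates of the table, for which no build is named, between SLC38A1 and SLC38A4. These are carriers of the same kind, and the 3 genes span 458.7 kb. In SLC38A1 the RPKM were 2.34, 1.38 and 1.47 in ICM and 0.625, 0.704 and 0.888 in TE. SLC38A4 stood at 3.36, 3.02 and 4.16 RPKM in ICM and 1.01, 1.57 and 1.26 in TE. Neither overlapped between the tissues, and neither passed the threshold with all libraries (log2 differences of 0.64 and 0.98, limma adjusted p = 0.22 and 0.079). Without ICM 25, SLC38A4 did (0.88, limma adjusted p = 0.042). Of the genes flanking the 3, ARID2, SCAF11 and RPAP3 overlapped between the tissues and were not called, with log2 differences of -0.34, -0.06 and -0.44. Of the other neutral amino acid carriers, SLC1A5, a glutamine exchanger, had 4.58 ± 2.65 RPKM in ICM and 3.37 ± 0.39 in TE, with overlapping libraries. SLC1A4, its close relative, had 0, 26 and 59 reads in ICM and 3, 7 and 6 in TE and was not tested.

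Of the SLC38 members of intracellular or less settled function, none was called with all libraries, and SLC38A6, SLC38A7 and SLC38A10 had TE above ICM without overlap. After rescaling by the median of ratios SLC38A6 overlapped. SLC38A7, a glutamine carrier of the lysosome, stood at 1.36, 2.07 and 2.73 RPKM in ICM and 5.09, 5.70 and 5.01 in TE, without overlap (log2 difference -1.06, SE 0.26, limma adjusted p = 0.078, and -1.22 with 0.014 without ICM 25). For SLC38A6 the RPKM were 5.26, 6.71 and 8.10 in ICM and 12.3, 13.7 and 9.72 in TE, and for SLC38A10 they were 2.64, 2.995 and 2.16 against 6.13, 4.32 and 3.52. The log2 difference of SLC38A6 was -0.75 (limma adjusted p = 0.19), and -0.88 without ICM 25 (limma adjusted p = 0.037). SLC38A9, a lysosomal sensor of arginine for the growth kinase complex mTORC1, had 6.13 ± 1.18 and 7.06 ± 0.76 RPKM, with overlap. SLC38A11 was not tested, with 0, 27 and 72 reads in ICM and 10, 8 and 14 in TE.

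**Figure D3:**
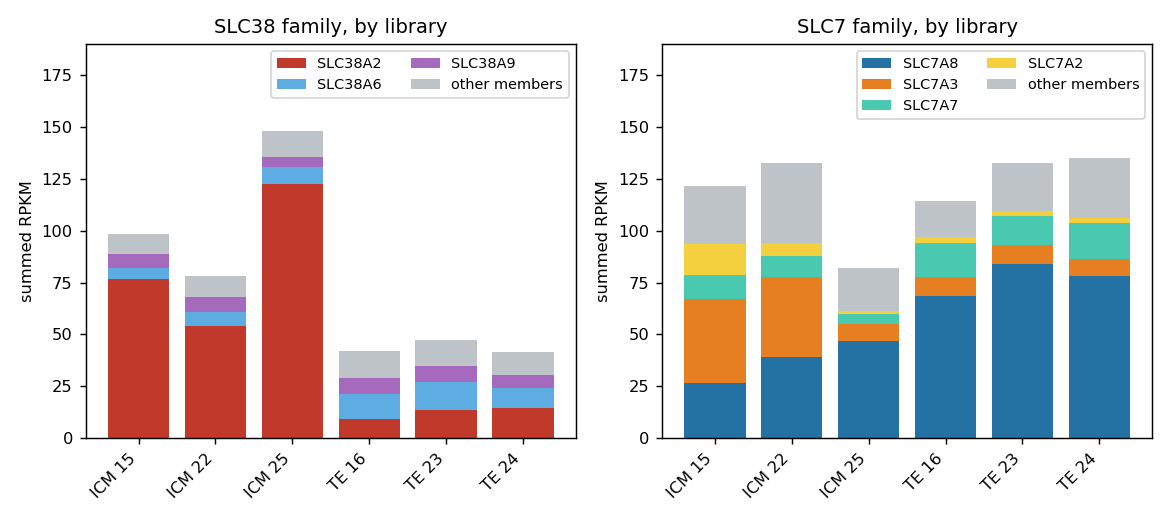
Summed RPKM of the SLC38 and SLC7 families in each library, as stacked bars, with 3 members of SLC38 and 4 of SLC7 in their own colours and the others in grey. SLC38A2 makes up 69.4% to 82.8% of the SLC38 sum in ICM and 21.9% to 34.8% in TE.

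The SLC38 sum was 98.3, 78.1 and 148 RPKM in ICM and 42.1, 47.4 and 41.3 RPKM in TE. SLC38A2 was 14.6, 8.08 and 15.1 times as high as SLC38A6 in the ICM libraries, and 0.752, 0.996 and 1.48 times in TE. Of all 54 carriers together, SLC38A2 gave 9.45% to 25.1% of the sum in ICM and 1.82% to 2.67% in TE.

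Among the cationic amino acid carriers, which bring in arginine and lysine, SLC7A3 and SLC7A2 split the ICM libraries. SLC7A3 stood at 40.4, 38.2 and 8.04 RPKM in ICM 15, 22 and 25 and at 8.93, 8.91 and 8.27 in TE. In RPKM, ICM 25 was thus below all 3 TE libraries, but it lay above them after rescaling by the median of ratios. With all libraries the log2 difference was 1.34 (SE 0.53, limma adjusted p = 0.25). Without ICM 25 it was 2.05 (SE 0.17, limma adjusted p = 0.0011). SLC7A2 was at 15.3, 6.19 and 1.28 RPKM in ICM and 2.88, 2.63 and 2.65 in TE (0.79, limma adjusted p = 0.55, and 1.54 with 0.025 without ICM 25). SLC7A1, the widespread carrier of the group, overlapped at 6.41 ± 3.4997 and 5.32 ± 2.27 RPKM. SLC7A4, whose transport activity is unsettled, had 5.46 ± 1.57 and 5.01 ± 1.15 RPKM, but its row shares none of the neighbours that RefSeq gives the gene, so its identity is uncertain.

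The heterodimeric exchangers pair a heavy chain, SLC3A2 or SLC3A1, with a light chain of the SLC7 family. SLC3A2 stood at 18.6, 25.1 and 23.3 RPKM in ICM and 26.0, 27.6 and 27.8 in TE, without overlap but within 1.21-fold in the means (log2 difference -0.28, limma adjusted p = 0.59). After rescaling by the median of ratios SLC3A2 overlapped. Its light chain SLC7A8, an exchanger of neutral amino acids, stood at 26.7, 39.4 and 46.9 RPKM in ICM and 68.7, 83.97 and 78.3 in TE. All TE libraries lay above all ICM libraries, with a log2 difference of -1.04 (SE 0.27, limma adjusted p = 0.093) that passed without ICM 25 (-1.22, SE 0.21, limma adjusted p = 0.012). SLC7A7, which exports cationic amino acids, was likewise without overlap, at 11.4, 10.4 and 4.96 RPKM against 16.4, 14.2 and 17.1, and not called. Its log2 difference was -0.83 (limma adjusted p = 0.22), and -0.50 without ICM 25 (limma adjusted p = 0.11). SLC7A5, the other large neutral amino acid exchanger, overlapped in RPKM, at 4.81, 8.81 and 4.03 in ICM and 1.81, 3.52 and 4.86 in TE (0.65, SE 0.36, limma adjusted p = 0.41). After rescaling by the median of ratios SLC7A5 did not overlap. SLC7A6 had 6.33 ± 1.62 and 4.21 ± 1.16 RPKM.

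The light chains were set against their heavy chain and against one another. The summed light chains SLC7A5, SLC7A6, SLC7A7 and SLC7A8 were 2.69, 2.62 and 2.59 times SLC3A2 in ICM and 3.46, 3.83 and 3.80 times in TE. SLC7A8 was 5.54, 4.47 and 11.6 times SLC7A5 in ICM and 37.9, 23.9 and 16.1 times in TE. ICM lay below TE in every library of both ratios, and the second ratio varied widely within each tissue. SLC7A8 was 21.9%, 29.7% and 57.2% of the SLC7 sum in ICM and 57.9% to 63.3% in TE, ICM 25 again being nearest to TE. The cystine carrier pair gave the opposite order in its heavy chain. SLC3A1 stood at 4.601, 6.38 and 13.03 RPKM in ICM and 2.77, 3.26 and 4.07 in TE, without overlap (0.95, limma adjusted p = 0.22, and 0.57 with 0.16 without ICM 25). Its light chain SLC7A9 overlapped at 4.95 ± 1.62 and 5.14 ± 0.63 RPKM. The SLC3A1 row overlaps PREPL and the SLC7A7 row overlaps MMP14, and without a stated strand such reads cannot be assigned.

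The uniporters of neutral and aromatic amino acids had 2 members in the table. SLC43A2, a uniporter of large neutral amino acids, stood at 4.23, 5.73 and 11.7 RPKM in ICM and 13.1, 14.1 and 11.6 in TE. ICM 25 reached the lowest TE library, and the log2 difference of -0.86 (limma adjusted p = 0.25) was -1.23 without it (limma adjusted p = 0.011). SLC16A10, a carrier of aromatic amino acids, overlapped at 3.26 ± 1.47 and 2.40 ± 0.73 RPKM.

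The proton-coupled amino acid carriers SLC36A1, SLC36A2 and SLC36A3 lie side by side on chromosome 14, over 170.6 kb. SLC36A2, a carrier of glycine and proline, was among the highest carriers of both tissues, at 70.3, 69.9 and 39.0 RPKM in ICM and 65.1, 59.4 and 56.7 in TE (log2 difference -0.06, limma adjusted p = 0.94), and its direction turned with the scaling. SLC36A1, found on lysosomes as well as at the surface, stood at 2.53, 4.05 and 4.22 RPKM against 5.96, 7.37 and 7.30, without overlap (-0.79, limma adjusted p = 0.17, and -0.89 with 0.045 without ICM 25). SLC36A3 had 16, 74 and 179 reads in ICM and 6, 5 and 13 in TE, and SLC36A4 had 20, 18 and 23 reads against 0, 0 and 3. Both were too low to be tested.

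Of the peptide carriers, SLC15A2, which takes up di- and tripeptides, differed widely within ICM. It stood at 1.40, 3.92 and 12.9 RPKM in ICM 15, 22 and 25 and 10.55, 13.5 and 11.1 in TE. ICM 25 lay within the TE range, and the log2 difference was -1.21 (SE 0.54, limma adjusted p = 0.31) with it and -1.88 (SE 0.31, limma adjusted p = 0.011) without. SLC15A4, a histidine and peptide carrier of endosomes, had 3.24 ± 1.63 and 2.12 ± 0.57 RPKM. SLC15A5 had 0 to 62 reads per library.

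For acidic amino acids, SLC1A3, a glutamate and aspartate carrier, stood at 23.0, 28.8 and 6.07 RPKM in ICM and 17.9, 15.3 and 13.6 in TE (log2 difference 0.06, limma adjusted p = 0.97). ICM 15 and 22 were above all TE libraries and ICM 25 below them. SLC1A1, a glutamate and cysteine carrier, had the same arrangement at lower levels, 3.56, 3.75 and 0.379 RPKM against 0.729, 0.715 and 0.961, and was not tested. The creatine carrier SLC6A8 stood at 8.83, 16.8 and 8.47 RPKM in ICM and 8.12, 8.47 and 8.79 in TE (0.32, limma adjusted p = 0.63). In RPKM, ICM 22 was the one library apart, whereas the tissues did not overlap after rescaling by the median of ratios. SLC6A13, a GABA and taurine carrier, had 0.728, 0.513 and 2.96 RPKM in ICM and 0.176, 0.186 and 0.221 in TE and was not tested.

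The sugar carriers kept a common main member and differed in a minor one. SLC2A1, the widespread glucose carrier, stood at 68.9, 53.1 and 38.9 RPKM in ICM and 51.7, 62.4 and 60.7 in TE and gave 82.5% to 90.9% of the SLC2 sum in every library (log2 difference -0.15, limma adjusted p = 0.83). SLC2A5, the fructose carrier, stood at 4.19, 6.46 and 3.91 RPKM in ICM and 0.714, 1.65 and 1.38 in TE. Every ICM library was above every TE library, and the means, 4.85 ± 1.40 and 1.25 ± 0.48 RPKM, differed 3.88-fold, on 835 reads in ICM and 183 in TE. The log2 difference was 1.38 (SE 0.28, limma adjusted p = 0.048), and 1.49 without ICM 25 (limma adjusted p = 0.016). It was the call nearest to the threshold. With a pseudocount of 0.1 the adjusted p was 0.064 and without the filter on low values 0.066, and with a library left out it ran from 0.016 to 0.249. SLC2A1 was 16.5, 8.23 and 9.96 times SLC2A5 in ICM and 72.4, 37.7 and 43.95 times in TE. SLC2A5 lies on chromosome 2 from 42001031 to 42023007.

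The other facilitated sugar carriers were low. SLC2A2 had 2.54 ± 2.11 RPKM in ICM, where ICM 15 held 4.98 and the others 1.27 and 1.37, and 1.64 ± 0.38 in TE. The intracellular carrier SLC2A8 overlapped, and the proton-coupled inositol carrier SLC2A13 did not, at 0.427, 1.10 and 0.588 RPKM in ICM and 1.13, 1.29 and 2.07 in TE (-0.55, limma adjusted p = 0.33). The row named SLC2A10 lies among zinc finger genes on another chromosome than in RefSeq, so its identity is uncertain, and it was not tested.

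By mean level the sodium-coupled SLC5 family had a different leader in each tissue, although SLC5A6 led in ICM 25 as it did in TE. In ICM the leader by mean was the inositol carrier SLC5A11, at 28.3, 29.7 and 6.91 RPKM against 21.03, 17.7 and 22.8 in TE (log2 difference -0.15, limma adjusted p = 0.91), with ICM 25 again apart from 15 and 22. In TE the leader was SLC5A6, which carries biotin and pantothenate, at 21.4, 24.0 and 23.9 RPKM against 10.49, 13.5 and 7.77 in ICM. The tissues did not overlap, and the log2 difference was -1.09 (SE 0.26, limma adjusted p = 0.076). It was -0.90 without ICM 25 (limma adjusted p = 0.021), and SLC5A6 also passed after rescaling by the median of ratios. SLC5A2, a glucose carrier best known from the kidney, stood at 4.31, 4.14 and 3.62 RPKM in ICM and 7.57, 8.56 and 8.97 in TE, without overlap (-0.90, SE 0.23, limma adjusted p = 0.089, and -0.84 with 0.029 without ICM 25). The iodide carrier SLC5A5 was without overlap too, at 3.48 ± 1.06 and 6.39 ± 0.60 RPKM (-0.75, limma adjusted p = 0.20). SLC5A3, an inositol carrier, and SLC5A10, a sugar carrier, overlapped.

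**Figure D4:**
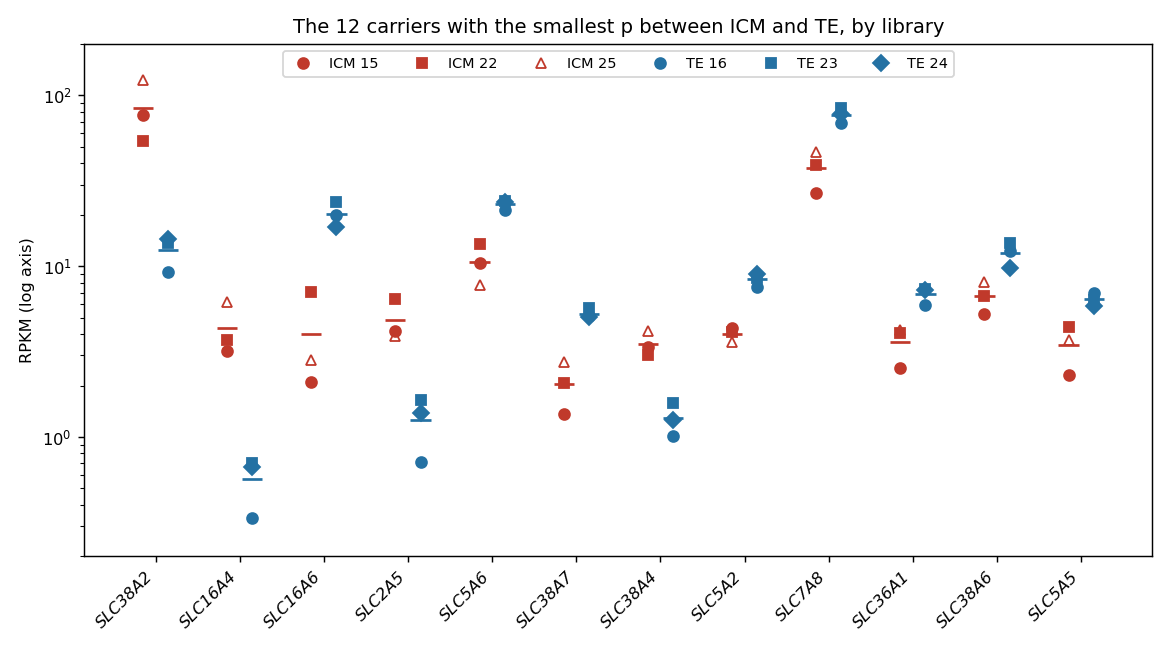
RPKM, on a log axis, of the 12 carriers with the smallest p between the tissues, 1 point per library (ICM 25 as an open symbol) with the tissue mean as a line. ICM and TE do not overlap for any of them, and SLC38A2 and SLC16A6 have the widest gaps between the means on the log2(RPKM + 1) scale.

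The monocarboxylate family held one call in each direction beside a shared main carrier. SLC16A1, the widespread lactate and pyruvate carrier, stood at 37.6, 31.2 and 32.05 RPKM in ICM and 41.98, 40.6 and 45.3 in TE. These were close, without overlap in RPKM but with overlap after rescaling by the median of ratios (log2 difference -0.34, limma adjusted p = 0.49). SLC16A6, a relative linked to the export of ketone bodies, stood at 2.10, 7.06 and 2.81 RPKM in ICM and 19.9, 23.8 and 17.03 in TE. Its means, 3.99 ± 2.68 and 20.2 ± 3.41 RPKM, made it 5.07-fold higher in TE, on 564 reads in ICM and 2407 in TE. The log2 difference was -2.21 (SE 0.36, limma adjusted p = 0.028), and -2.62 to -1.93 with any library left out (adjusted p 0.014 to 0.166).

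SLC16A4, a member whose substrate is not settled, stood at 3.20, 3.70 and 6.17 RPKM in ICM and 0.337, 0.703 and 0.671 in TE. The means, 4.36 ± 1.59 and 0.57 ± 0.20 RPKM, differed 7.64-fold, the largest ratio among the 4 called carriers, on 576 reads in ICM and 67 in TE. On the log2 scale, where the added 1 RPKM narrows low values, the difference was 1.74 (SE 0.28, limma adjusted p = 0.027), and 1.51 without ICM 25 (limma adjusted p = 0.0087). With any library left out the adjusted p ran from 0.0087 to 0.164. SLC16A4 passed the filter of 1 RPKM only through its ICM values, so these p-values carry that selection. Without the filter on low values the limma adjusted p was 0.033, and with the filter of 5 RPKM it was not tested. SLC16A1 was 17.9, 4.42 and 11.4 times SLC16A6 in ICM and 2.11, 1.70 and 2.66 times in TE, again without overlap. SLC16A6 lies on chromosome 11 from 12378177 to 12388052 and SLC16A4 on chromosome 5 from 57861760 to 57883529.

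Further SLC16 members overlapped. SLC16A14, of unknown substrate, had 9.54 ± 6.31 and 6.90 ± 2.78 RPKM, SLC16A7, a high-affinity lactate and pyruvate carrier, 2.09 ± 1.33 and 2.13 ± 1.13, and SLC16A9 3.76, 1.98 and 0.0791 RPKM in ICM and 0.754 to 1.20 in TE. SLC16A13 was not tested, and its row overlaps another gene.

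**Figure D5:**
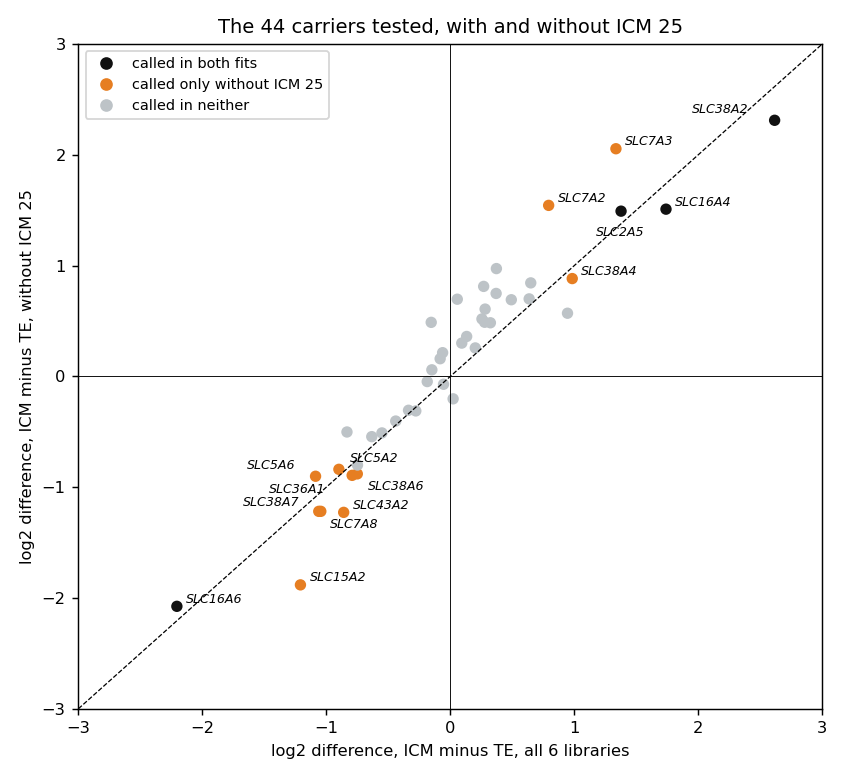
Log2 difference of the 44 tested carriers with all 6 libraries (x axis) and without ICM 25 (y axis), both ICM minus TE, with the line of equality. SLC7A3 moves from 1.34 to 2.05 and SLC15A2 from -1.21 to -1.88, while SLC38A2 moves from 2.62 to 2.31.

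In carriers, as over all genes, ICM 25 sided with the other ICM libraries more often where these were low than high. The values of ICM 25 ran low over all genes, and the pattern was not counted after rescaling. In 16 carriers ICM 15 and 22 were both above all TE libraries, and ICM 25 was too in 6 of them (37.5%, against 31.5% of all genes with that arrangement). In 15 carriers ICM 15 and 22 were below all TE libraries, and ICM 25 was too in 13 (86.7%, against 77.9% of all genes). The shares over the carriers were thus near those over all genes. SLC15A2 and SLC43A2 were the exceptions on the low side.

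In the authors' deposited table, whose test was DESeq, 20 of the 54 carriers had an adjusted p under 0.05, where 16.6% of all genes did. Of these, 12 were higher in ICM, 22.2% of the carriers against 10.7% of all genes in the authors' deposited table. The other 8 were higher in TE, 14.8% against 5.96% in the authors' deposited table. All 4 carriers called with limma were among them in the same direction. Both tests used the same 6 libraries, so the shared direction was fixed in advance. The authors' deposited table also gave SLC1A1, SLC1A4, SLC36A3, SLC36A4, SLC6A13, SLC38A4, SLC3A1, SLC7A2 and SLC7A3 as higher in ICM, of which the first 5 were too low for the limma fit. It gave SLC7A7, SLC7A8, SLC15A2, SLC38A7, SLC43A2, SLC5A2 and SLC5A6 as higher in TE, per the authors' deposited table.

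Genes that work with these carriers were counted by list, and 76 of them were tested. Of all genes tested, 1.87% were called and 16.9% had an unadjusted p under 0.05. Among 10 chaperones and traffic partners, 15 genes of the amino acid stress response, 22 of mTORC1 and amino acid sensing, 13 of glucose and lactate handling, 2 of fructose and polyol metabolism and 5 of glutathione and cystine handling, none was called (limma, with 2, 3, 1, 1, 0 and 1 at an unadjusted p under 0.05). The 13 of glucose and lactate handling include TUG1, the symbol of a non-coding RNA and not of a glucose gene. Among 9 genes of amino acid use 1 was called, BCAT1, which starts the breakdown of branched-chain amino acids. It stood at 21.0, 30.1 and 18.0 RPKM in ICM and 7.64, 6.84 and 9.71 in TE, without overlap (log2 difference 1.39, SE 0.27, limma adjusted p = 0.045). The call was lost when any library other than ICM 25 was left out, with a pseudocount of 0.1 and without the filter on low values.

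No other partner passed the threshold with all libraries. SGK1, a kinase known to raise the surface level of many carriers, stood at 2.32, 4.43 and 2.85 RPKM in ICM and 7.83, 8.46 and 7.98 in TE (log2 difference -1.15, limma adjusted p = 0.069). GSS, which completes glutathione, stood at 2.04, 2.02 and 2.08 RPKM against 5.51, 6.69 and 4.27 (-1.07, limma adjusted p = 0.068). CHAC1, a glutathione-degrading enzyme of the stress response, had a log2 difference of -1.41 (limma adjusted p = 0.074), HK1, the first enzyme of glucose use, -0.75 (0.16), and SORD, of the polyol pathway, -0.68 (0.34). The other partners with the 2 smallest p of their list were NEDD4 (0.71, adjusted p = 0.26), SESN2 (0.94, 0.20), LAMTOR4 (1.20, 0.22), LAMTOR1 (-0.56, 0.30), TBC1D4 (-0.49, 0.38), AKR1B1 (0.61, 0.59), NFE2L2 (-0.40, 0.49) and SRM (-0.58, 0.27), all by limma. Without ICM 25, 13 partner genes were called, where 11.5% of all genes were. BCAT1, AKR1B1, ASNS, EMB, GCLM, PSAT1 and TMEM27 were higher in ICM (7 genes, where 5.89% of all genes were), and ARL6IP5, BCAT2, CHAC1, GSS, HK1 and SGK1 higher in TE (6 genes, where 5.62% of all genes were). BSG and EMB, the chaperones of SLC16A1, stood at 1.33 to 5.73 and 2.52 to 18.2 RPKM in ICM and 1.09 to 3.45 and 6.07 to 9.81 in TE, and both overlapped with all libraries.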

How the data were processed

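RNA of the 6 libraries was isolated with a Picopure kit and amplified with a Nugen Ovation kit (V1 in the sample labels, V2 in the series text) before TruSeq DNA library preparation, per the labels. The authors deposited 1 table of RPKM, with 6 library columns per the file headers. It also holds, made by the authors, each gene's mean signal (DESeq normalized counts), the fold as a ratio of ICM over TE, its log2 value, the DESeq p-value and adjusted p-value, and a residual variance score that was not used. The authors used FastQC and DESeq, per the submitters' processing notes. The aligner, build and gene models were not given in the sources used here. All rows reach 0.4 RPKM in 2 or more libraries.

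RPKM and mean signal together gave back whole reads, within 0.001, for 100% of values up to 1000 reads. Genes that reached 1 RPKM in 3 or more libraries (9436) were fitted on log2(RPKM + 1) in R 4.3.3 by limma 3.58.1, using lmFit and eBayes with a trend. Tests were two-sided, with Benjamini-Hochberg adjustment over all genes kept. This scale understates the change of low genes. The cDNA was amplified and carried no molecular identifiers, so counting error is too small an estimate. Strand was not stated. The script was tested on simulated data.

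Members, lists and rules were chosen with earlier results of these data known. Values by library are given for carriers that were called, that differed by at least 1 on the log2 scale without overlap, or that led a family, and for SLC7A5. Partners were named where they were called or had the 2 smallest p of a list, with values by library for BCAT1, SGK1 and GSS. Values of other carriers printed by library, and other partners named, were chosen after they were seen. RefSeq's gene table of assembly TB-T2T, used for names and neighbours only, lists 53 of the 54 carriers and 47 further genes that match the rule and were not analysed here. The values of 1 carrier are not reported here. Alternatives were another pseudocount, filters, rescaling, library weights and leaving out each library.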

Additional observations from a re-analysis of the deposited data

How the results depend on the processing

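Over all genes, 176 were called. The count was 112 with a pseudocount of 0.1, 114 without the filter on low values, 81 with a filter of 5 RPKM, 760 with library weights (where ICM 25 had the lowest weight, 0.172) and 0 to 1086 with 1 library left out. Of the carriers, 4 were called, 2 with the 5 RPKM filter, which leaves fewer genes tested, 13 with library weights and 0 to 15 with 1 library left out. Partner genes called were 1, against 0 with a pseudocount of 0.1, 0 without the filter, 0 with limma voom on the recovered reads, 6 with library weights and 0 to 13 with 1 library left out. Carriers without overlap were 19 of the 44 tested, against 12 of the 27 tested with the 5 RPKM filter, so the total share hardly moved. The split did move, from 6 with ICM above TE and 13 with TE above ICM to 1 and 11. The share over all genes with that filter was not counted. The cause of the other shifts was not tested. Rescaling moved the median of all genes from -0.15 to -0.03. SLC36A2 then turned to 0.081 (median of ratios) and 0.088 (quantile), and SLC2A1 to 0.012 (quantile). With library weights, which leave the values unscaled, SLC36A2 turned to 0.12 and SLC5A11 to 0.34. With 1 library left out, SLC1A3 ran from -0.34 to 0.70, SLC2A1 from -0.35 to 0.059, SLC36A2 from -0.20 to 0.21 and SLC5A11 from -0.49 to 0.49, none called with all libraries. SLC2A5 had an adjusted p of 0.054 with voom. The planned count tests of edgeR and DESeq2 were not run, because the deposited values are RPKM; voom was added in their place after seeing the data. No paired analysis was possible because no replicate number is shared between ICM and TE. In SLC36A4 and SLC1A4, with at most 23 and 59 reads in a library, depth limits what can be seen.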
